A study of Oryza sativa Japonica Group with 10 samples.

Results

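The 7 genes described here encode the rice transporters that take up nitrate and ammonium from dilute solution: NRT2.1, NRT2.2 and NRT2.3, the partner protein gene NAR2.1, and AMT1;1, AMT1;2 and AMT1;3. They were chosen by gene ID, and all 7 were found among the 33486 rows of the deposited count table. The IDs were LOC_Os02g02170 for NRT2.1, LOC_Os02g02190 for NRT2.2, LOC_Os01g50820 for NRT2.3 and LOC_Os02g38230-ext for NAR2.1. AMT1;1 was LOC_Os04g43070, AMT1;2 was LOC_Os02g40710 and AMT1;3 was LOC_Os02g40730. The table describes the NRT2 rows as major facilitator family transporters, NAR2.1 as a high affinity nitrate transporter and the AMT1 rows as ammonium transporter proteins. All 7 names were also found in a RefSeq gene table (assembly ASM3414082v1), where AMT1;2 and AMT1;3 are both given as names of the same 2 neighbouring genes, so which of the pair carries which name is uncertain.

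NRT2 proteins carry nitrate into root cells together with protons, at external concentrations too low for most other nitrate carriers. In rice, NRT2.1, NRT2.2 and a form of NRT2.3 work only with NAR2.1, a small protein that brings them to the plasma membrane. NRT2.1 and NRT2.2 have the same coding sequence and differ outside it, and NRT2.3 is known for moving nitrate towards the shoot. AMT1 proteins are plasma membrane carriers of ammonium, the main form of nitrogen in flooded soil. Their mRNA levels in rice roots are known to respond to the nitrogen supply.

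Polyadenylated RNA was sequenced from roots of rice cultivar Nipponbare (GSOR-100), as 3 tip and 2 mature root libraries for each of 2 days. Seedlings had germinated for 5 days in the dark, were moved at 12 days of age into a hydroponic system with Hoagland solution, and stood with the whole plant, roots included, in the light. The 4 groups were tips after 6 days and after 2 days in hydroponics, and mature root after 6 days and after 2 days, so day and plant age cannot be told apart. Tips held meristem and elongation zone, mature root was the rest of the root system, and every library pooled tissue of 6 plants.

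Total counts of the tip libraries were 1428128 to 2560074 (day 6) and 986907 to 2001408 (day 2). Those of mature root were 2648858 to 3286439 (day 6) and 2161392 to 2776544 (day 2). A count of 3 was worth 0.809 to 2.69 CPM in a single library (CPM is the read count after TMM scaling to a common library size), so members below that range rest on a few reads. Of 5 meristem and stem cell niche markers, 4 had a positive fitted tissue difference and 1, PLT2, passed the test as higher in tip, a call lost in 8 of the 10 fits that left out a library. Of 5 markers of mature root, the silicon transporter genes Lsi1 and Lsi2 were lower in tip (a call that Lsi1 lost in 1 of those fits). The root hair genes were split and did not pass. EXPA17 and RHL1 had positive differences, while CSLD1 averaged 1.65 CPM over tip libraries and 5.21 CPM over those of mature root. All 5 green tissue markers were lower in tip, with summed levels of 3.21 to 16.2 CPM in tip libraries and 599 to 2243 CPM in mature root libraries. One of them, the Rubisco small subunit gene LOC_Os12g17600, had 0 counts in tips.

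**Figure D1:**
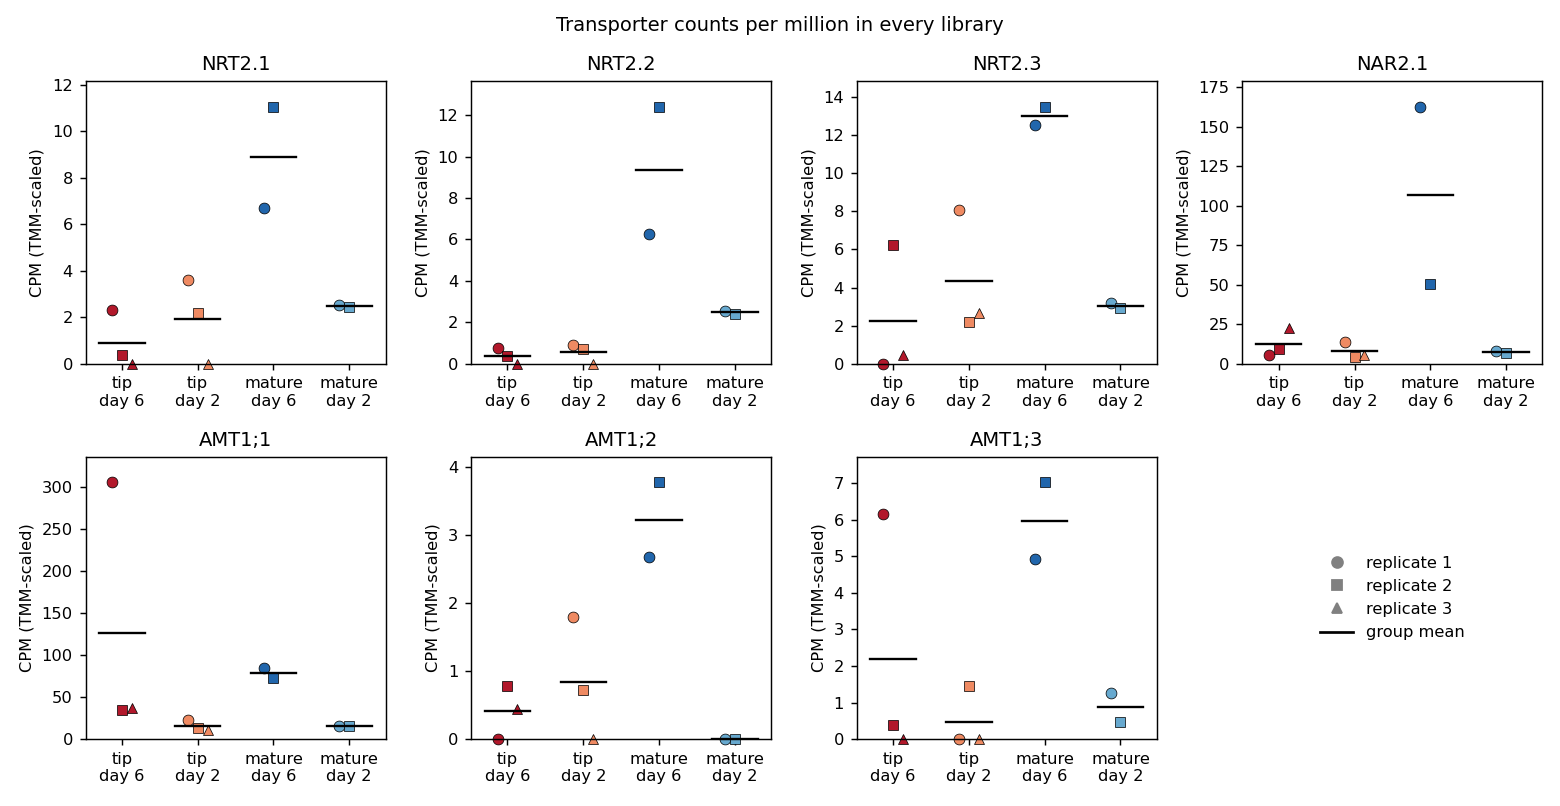
TMM-scaled CPM of the 7 genes in each of the 10 libraries, tip groups left of mature root groups, with 1 symbol per replicate number and a bar for the group mean. Mature root on day 6 holds the highest values of NRT2.1, NRT2.2, NRT2.3, NAR2.1, AMT1;2 and AMT1;3, while AMT1;1 reaches 306 CPM in 1 tip library of day 6.

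Along the root, 2 genes of nitrate uptake passed the test as lower in tip than in mature root. NRT2.2 did so over both days and on day 6, and NAR2.1 on day 6, at a mean of 12.4 CPM in 3 tip libraries (SD 8.93) and 107 CPM in 2 libraries of mature root (SD 79.1). None of the ammonium transporters passed in edgeR. These are pieces of tissue, so a lower value can come from fewer cells of a type or from less mRNA per cell, which cannot be told apart.

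NRT2.2 had 0.770, 0.391 and 0 CPM in the tip libraries of day 6, and 0.898, 0.733 and 0 CPM in those of day 2. It had 6.25 and 12.4 CPM in mature root on day 6, and 2.54 and 2.42 CPM on day 2. Every tip library thus lay below every mature root library, with 4 counts in 6 tip libraries and 73 counts in 4 mature root libraries. The fitted log2 fold change over both days was -3.40 (SE 0.832, 95% interval -5.20 to -1.59, Benjamini-Hochberg adjusted p = 0.0204 in edgeR's quasi-likelihood test). On day 6 it was -4.56 (SE 1.15, edgeR adjusted p = 0.0356), from 2 tip counts against 60 in mature root, a scaled count ratio of 0.0326 with a counting interval of 0.00386 to 0.123. On day 2 it was -2.23 and did not pass (edgeR adjusted p = 0.383), from 2 tip counts against 13.

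NRT2.1, its neighbour with 0 genes between them in the RefSeq table, had 2.31, 0.391 and 0 CPM in tips of day 6, and 3.59, 2.199 and 0 CPM in tips of day 2. In mature root it had 6.70 and 11.1 CPM on day 6, and 2.54 and 2.42 CPM on day 2. The tissues overlapped over both days and not on day 6. The differences did not pass the test, at -1.97 (SE 0.893, edgeR adjusted p = 0.166) over both days, -3.48 (SE 1.27, edgeR adjusted p = 0.113) on day 6 and -0.46 (edgeR adjusted p = 0.891) on day 2.

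Reads from the coding sequence that NRT2.1 and NRT2.2 share cannot be assigned to a copy with certainty, and the sources used here do not give how the authors' counting treated them. The copies had 80 and 77 counts in all, equal counts in 5 of 10 libraries and at most 5 counts between them elsewhere. Summed, they reached 0 to 4.49 CPM in tip libraries and 4.84 to 23.5 CPM in mature root libraries, without overlap. As 1 row, the pair gave -2.52 over both days (edgeR adjusted p = 0.0658) and -3.97 on day 6 (edgeR adjusted p = 0.0631), so that neither comparison passed. The NRT2.2 call over both days was also lost without mature root replicate 1 of day 6 (edgeR adjusted p = 0.0505), replicate 2 of day 6 (0.0871), replicate 1 of day 2 (0.0547) or replicate 2 of day 2 (0.0522). Its call on day 6 was lost in a fit of the day 6 groups alone (edgeR adjusted p = 0.059), without tip replicate 2 (0.0937) or 3 (0.0808), and without mature root replicate 1 (0.12) or 2 (0.173).

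NRT2.3 had 0, 6.25 and 0.449 CPM in tips of day 6, and 8.08, 2.199 and 2.67 CPM in tips of day 2. In mature root it had 12.5 and 13.5 CPM on day 6, and 3.18 and 2.90 CPM on day 2. Its tip libraries were thus scattered, and on day 6 all of them lay below both mature root libraries. The fitted differences of -0.97 over both days (SE 0.776), -2.40 on day 6 (SE 1.07) and 0.46 on day 2 (SE 1.14) did not pass (edgeR adjusted p = 0.438, 0.181 and 0.878).

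NAR2.1, without which NRT2.1 and NRT2.2 do not work, had 5.39, 9.38 and 22.5 CPM in tips of day 6, against 163 and 50.7 CPM in mature root of day 6. On day 2 it had 13.5, 4.40 and 5.35 CPM in tips, against 8.26 and 6.78 CPM in mature root. The day 6 tissues were well apart, while those of day 2 overlapped. On day 6 NAR2.1 was lower in tip by 3.08 on the log2 scale (log2 fold change -3.08, SE 0.749, 95% interval -4.70 to -1.46, edgeR adjusted p = 0.0311), from 81 tip counts against 552. That call was lost in a fit of the day 6 groups alone (edgeR adjusted p = 0.0758), without tip replicate 1 (0.0659) or 2 (0.0961), and without mature root replicate 1, where the difference was -2.01 (0.327).

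On day 2 the fitted NAR2.1 difference was 0.01 (SE 0.803, edgeR adjusted p = 0.997). Over both days it was -1.53 (SE 0.536) and did not pass in edgeR (adjusted p = 0.081). It passed in the DESeq2 test (adjusted p = 0.0349), in edgeR without a filter on low counts (adjusted p = 0.0357) and without tip replicate 3 of day 6 (adjusted p = 0.0414). These settings called 2355 of 18908, 2739 of 33486 and 1639 of 19234 rows lower, against 1734 of 19234 in the reported fit. The tissue difference on day 6 minus that on day 2 was -3.09 (SE 1.11, 95% interval -5.49 to -0.70). Its unadjusted p was 0.0155 and its edgeR adjusted p 0.513, which was also the smallest adjusted p of any row.

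**Figure D2:**
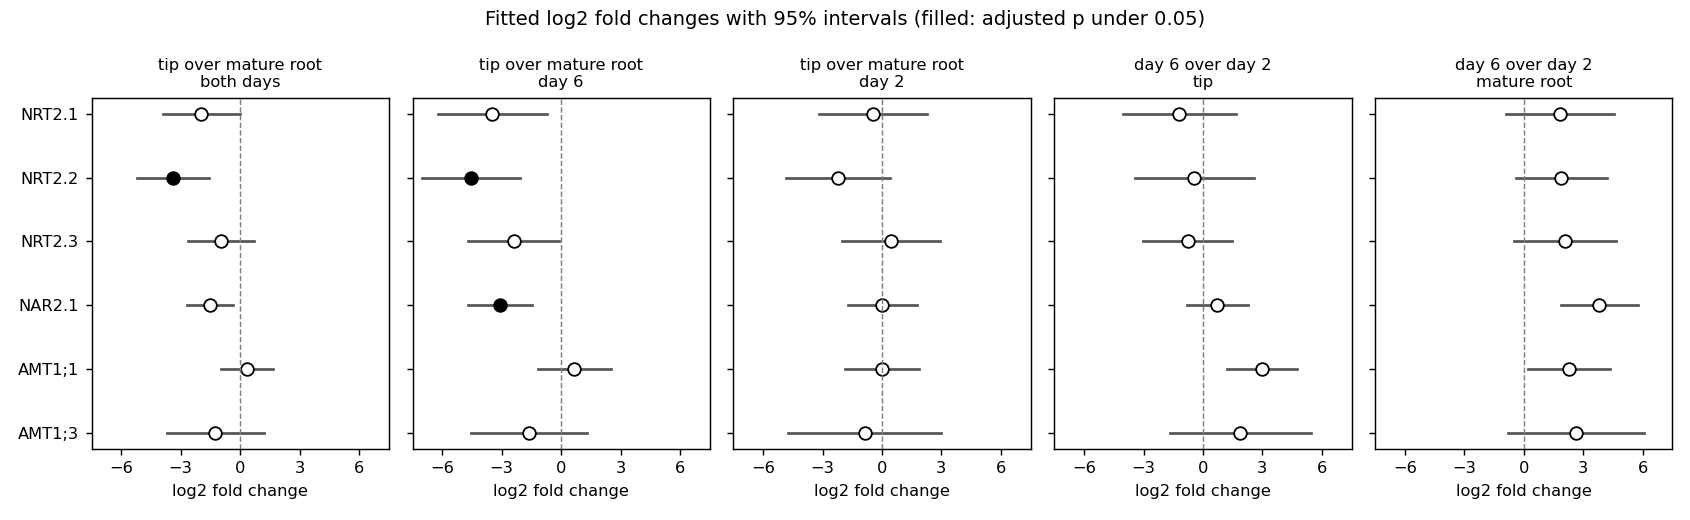
Fitted log2 fold changes with 95% intervals of the 6 tested genes, in the 3 tissue comparisons (tip over mature root) and the 2 time comparisons (day 6 over day 2). Filled points passed the test: NRT2.2 over both days and on day 6, and NAR2.1 on day 6.

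Of the 7 genes, 6 had enough counts to be tested, AMT1;2 being the exception. Over both days 1 of these 6 was called lower in tip and 0 higher, where 9.02% of all 19234 tested rows were called lower and 3.18% higher. On day 6, 2 of 6 were called lower, against 5.75% of all rows. On day 2 edgeR called 0 of 6, and 1.15% of all rows in either direction. At an unadjusted p under 0.05 it had 0 of 6 members and 16.7% of all rows, and DESeq2 called 0 members and 5.47% of its 18908 rows. In the day 6 libraries 5 of the 7 genes, namely NRT2.1, NRT2.2, NRT2.3, NAR2.1 and AMT1;2, were lower in every tip than in every mature root library. Among tested rows, this held for 4 of the 6 members and for 22.8% of all rows on that day. The corresponding count was 1 of 6 tested members on day 2 (18.5% of all tested rows) and 1 of 6 over both days (7.34%), NRT2.2 each time. AMT1;2 overlapped in both. The median log2 fold change of the tested members was -1.39 over both days, -2.74 on day 6 and -0.23 on day 2, beside 0.05, 0.06 and 0 for all tested rows. The green tissue markers moved the same way between tissues, and their part in these differences was not tested.

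AMT1;1, the AMT1 gene known to be active in both roots and shoots of rice, had 306, 35.2 and 37.3 CPM in tips of day 6. Tips of day 2 had 23.3, 13.9 and 11.2 CPM. Mature root had 84.4 and 72.6 CPM on day 6, and 15.9 and 16.5 CPM on day 2. The 306 CPM of tip replicate 1 stood far above all other libraries, and the other tips of day 6 lay below mature root of that day. The fitted difference of tip over mature root was 0.33 (SE 0.603, 95% interval -0.97 to 1.64, edgeR adjusted p = 0.758) over both days, 0.68 (SE 0.843) on day 6 and -0.01 (SE 0.859) on day 2. Without that tip library it was -0.56 over both days (edgeR adjusted p = 0.369) and -1.11 on day 6 (edgeR adjusted p = 0.252), so the direction rested on 1 library.

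AMT1;3 was near the counting limit, with 6.16, 0.391 and 0 CPM in tips of day 6 and 0, 1.47 and 0 CPM in tips of day 2. It had 4.91 and 7.01 CPM in mature root of day 6, and 1.27 and 0.484 CPM on day 2. Tips and mature root overlapped on both days, and its highest tip value came from the same library as that of AMT1;1. The tissue difference was -1.25 (SE 1.14, edgeR adjusted p = 0.502) over both days. AMT1;2 had 0, 2 and 1 counts in tips of day 6, 2, 1 and 0 in tips of day 2, 6 and 14 in mature root of day 6, and 0 and 0 in mature root of day 2. Its day 6 ratio of tip over mature root was 0.147, with a counting interval of 0.0279 to 0.494 that leaves out the spread between replicates. In edgeR without a filter on low counts, its log2 fold change on day 6 was -2.66 (SE 1.62, adjusted p = 0.378).

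AMT1;1 therefore made up most AMT1 reads in both tissues. It took 97.4% of the AMT1 counts in tip (636 of 653, 95% Clopper-Pearson interval 95.9% to 98.5%) and 89.7% in mature root (542 of 604, 87.0% to 92.0%). Both intervals cover counting error only. Of the 636 tip counts, 397 came from replicate 1 of day 6. In single libraries its share per exon length overlapped between tissues, at 82.4% to 100% in tip and 83.2% to 96.5% in mature root.

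With time in hydroponics, all 7 genes were higher on day 6 than on day 2 in mature root, each without overlap between the days. Among tested rows, this held for all 6 members and for 22% of all rows, with 2 libraries a day. In the tip AMT1;1 alone of the 7 was higher on day 6 without overlap. That is 1 of 6 tested members, where 5.9% of all tested rows were. No time difference passed edgeR's test after adjustment, among the members or among all rows (0% called). At an unadjusted p under 0.05 edgeR had 2 of the 6 tested members and 10.8% of all rows in mature root, and 1 member and 10.7% of rows in tip. DESeq2 called 1 member higher in each tissue, NAR2.1 in mature root, where it called 260 of 18908 rows higher (1.38%), and AMT1;1 in tip, where it called 48 (0.254%).

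Among the 6 tested members, NAR2.1 had the largest time difference in mature root, with 552 counts on day 6 and 40 on day 2. The fitted log2 fold change was 3.81 (SE 0.902, 95% interval 1.86 to 5.77, unadjusted p = 0.00106, edgeR adjusted p = 0.259). It passed in DESeq2 (adjusted p = 0.0022) and in edgeR without a filter on low counts (adjusted p = 0.00307). Without the filter edgeR called 438 of 33486 rows higher and 298 lower in this comparison, where the reported fit called 0. Mature root replicate 1 of day 6, with 163 CPM, carried much of it, and the log2 fold change was 2.74 without that library. AMT1;1 had 2.28 (SE 0.958, unadjusted p = 0.0342, edgeR adjusted p = 0.41), from 458 counts on day 6 and 84 on day 2.

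The NRT2 genes had similar, uncalled differences in mature root: 1.82 (SE 1.27) for NRT2.1, 1.89 (SE 1.07) for NRT2.2 and 2.07 (SE 1.20) for NRT2.3. AMT1;3 had 2.64 (SE 1.58). AMT1;2 had 20 counts on day 6 and 0 on day 2. With a floor of 3 counts over the day 2 libraries it was 5.85-fold higher on day 6, and its counting interval started at 4.33-fold. Without mature root replicate 1 or 2 of day 6 the floor gave 6.57-fold or 4.66-fold. The members' median was 2.17, beside -0.03 for all tested rows. In the same libraries all 5 mature root markers and all 5 green tissue markers also had positive time differences, uncalled in edgeR. The green tissue sum was 894 to 2243 CPM on day 6 and 599 to 1207 CPM on day 2. Of the 5 meristem and stem cell niche markers, 4 had negative time differences there and 1 a positive one, also uncalled. Their sum was 92.0 to 101 CPM on day 6 and 155 to 244 CPM on day 2. The part of these marker differences in the members' values was not tested.

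In the tip, AMT1;1 had 570 counts on day 6 and 66 on day 2, and a log2 fold change of 2.96 (SE 0.812, 95% interval 1.20 to 4.72). The unadjusted p was 0.00308 and the edgeR adjusted p 0.425. DESeq2 called it (adjusted p = 0.0312), and so did edgeR without a filter on low counts (adjusted p = 0.000643). Without the filter edgeR called 535 of 33486 rows higher and 467 lower in this comparison, where the reported fit called 0. Without tip replicate 1 of day 6 the log2 fold change was 1.17 (edgeR adjusted p = 0.497), and the other tips of day 6 were still above all tips of day 2. The remaining tested members had differences of both signs in tip, between -1.20 for NRT2.1 and 1.89 for AMT1;3, and the members' median was 0.14, beside 0.03 for all rows. The tissue difference on day 6 minus that on day 2 was negative for 5 of 6 tested members, with a median of -2.59 beside 0.08 for all rows. edgeR called 0 of them (0% of all rows), with 1 member and 9.47% of rows at an unadjusted p under 0.05, and DESeq2 called 0 members and 0.513% of its rows.

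Per exon length (RPKM, CPM per kilobase of the exon length in the table), NAR2.1 and AMT1;1 were the most abundant of the 7 in all 4 groups. In tip of day 6 AMT1;1 averaged 50.9 ± 62.8 RPKM and NAR2.1 12.1 ± 8.73 RPKM (SD, n = 3), and their ranges overlapped. In tip of day 2 NAR2.1 averaged 7.57 ± 4.88 RPKM and AMT1;1 6.53 ± 2.57 RPKM (SD, n = 3), also overlapping. In mature root of day 6 the levels were 104 ± 77.4 RPKM for NAR2.1 and 31.7 ± 3.38 RPKM for AMT1;1 (SD, n = 2), without overlap. In mature root of day 2 they were 7.35 ± 1.02 RPKM and 6.53 ± 0.166 RPKM (SD, n = 2), and overlapped.

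The next level in mature root belonged to the NRT2 genes, at 4.62 to 6.14 RPKM on day 6 and 1.29 to 1.44 RPKM on day 2. The values of NRT2.1 and NRT2.2 depend on how their shared reads were counted, which is not given. On day 6 NRT2.3 overlapped with NRT2.2 and NRT2.2 with NRT2.1, while NRT2.3 (5.91 to 6.37 RPKM) lay above NRT2.1 (3.49 to 5.75 RPKM). AMT1;3 and AMT1;2 were the lowest in mature root, at 2.98 and 2.05 RPKM on day 6. In tips the members other than NAR2.1 and AMT1;1 averaged 0.208 to 1.09 RPKM on day 6 and 0.244 to 2.04 RPKM on day 2, and neighbours in that order overlapped throughout.

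**Figure D3:**
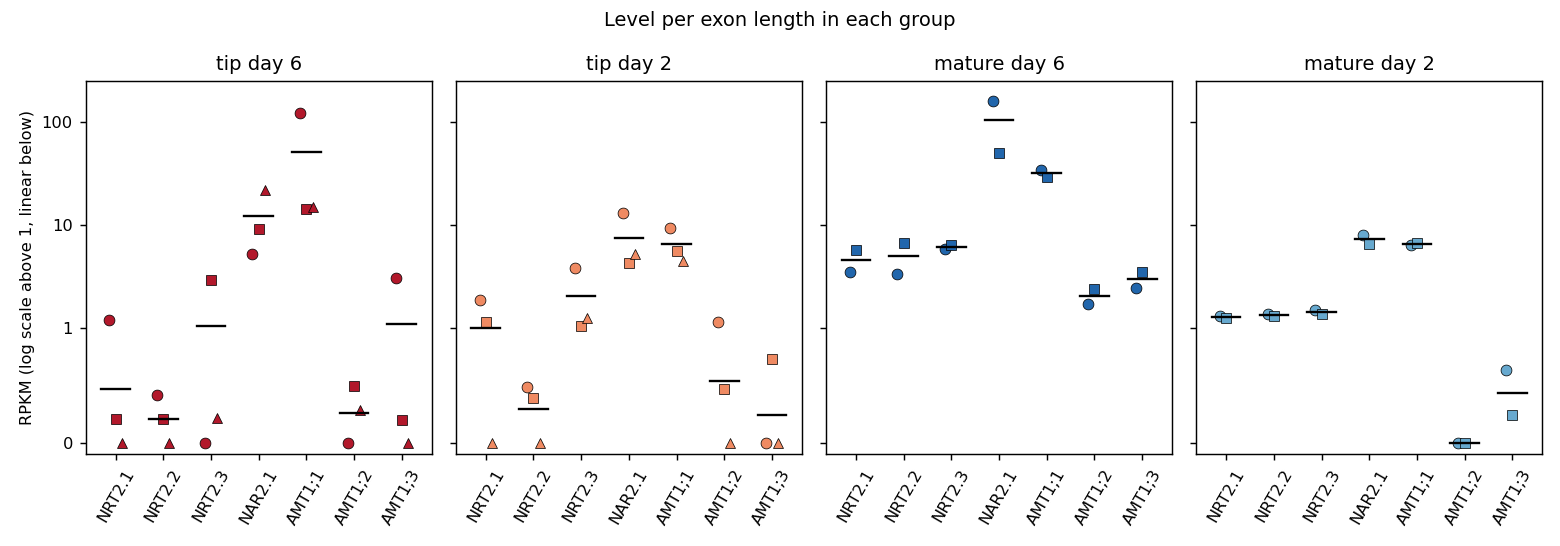
Level per exon length (RPKM, logarithmic above 1 and linear below) of the 7 genes in the 4 groups, with circles, squares and triangles for replicates 1, 2 and 3 and a bar for the group mean. NAR2.1 and AMT1;1 stand above the other members in every group, with NAR2.1 at 49.6 and 159 RPKM in mature root of day 6.

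Per exon length, NAR2.1 exceeded the summed NRT2 genes in every library, and by an uneven factor. How reads shared by NRT2.1 and NRT2.2 were counted is not given. The NRT2 sum and its ratio to NAR2.1 may therefore be off in either direction. In reads, which are not scaled for length, NAR2.1 took 46.15% to 98.04% of the counts of the 4 genes, and was not above the NRT2 sum in tip replicate 2 of day 2 (46.15%) or in mature root replicates 1 (50%) and 2 (46.67%) of day 2. The RPKM ratio of NAR2.1 to the NRT2 sum was 2.72 to 103.5 in tips of day 6, 1.67 to 4.14 in tips of day 2, 2.64 and 12.5 in mature root of day 6, and 1.69 to 1.93 in mature root of day 2. The tip ratio of 103.5 rested on a single NRT2 count, in replicate 3 of day 6. In mature root of day 6, replicate 1 had the higher NAR2.1 level, 159 against 49.6 RPKM in replicate 2, and the lower NRT2 sum, 12.8 against 18.8 RPKM. NAR2.1 and the NRT2 sum thus differed in opposite directions between these 2 libraries, while NRT2.3 had 5.91 RPKM in replicate 1 and 6.37 RPKM in replicate 2. Whether partner and transporter mRNAs vary in step was not tested. Over the 6 tip libraries the log2 CPM of NAR2.1 had a Pearson r of -0.26 with NRT2.1, -0.31 with NRT2.2 and 0.08 with NRT2.3. AMT1;1 and AMT1;3 had r = 0.77 in the same libraries, and NRT2.3 and AMT1;1 had r = -0.62. Over all 10 libraries, which share tissue and day groups, NAR2.1 had r = 0.54 with NRT2.1, 0.66 with NRT2.2 and 0.61 with NRT2.3. The tip values describe 6 libraries of 2 days, several of them with 0 to 3 counts of a gene.

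**Figure D4:**
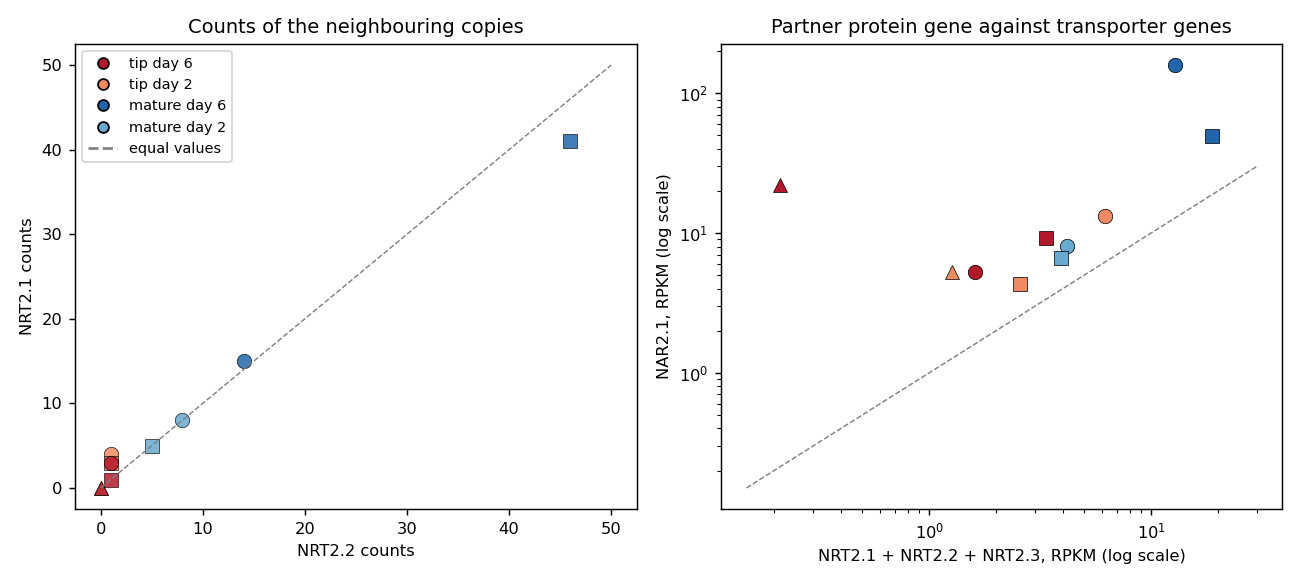
Left, counts of NRT2.1 against NRT2.2 in each library. Right, RPKM of NAR2.1 against the sum of the 3 NRT2 genes on logarithmic axes; dashed lines mark equal values, colours mark groups, and circles, squares and triangles mark replicates 1, 2 and 3. The copies have the same count in 5 of 10 libraries, and NAR2.1 lies above the line in all 10.

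Of the other genes of nitrogen uptake and use, 0 to 2 per list were called lower in tip over both days and 0 higher, where 9.02% of all tested rows were called lower. Among 9 other nitrate transport genes, 6 were tested and edgeR called 0 over both days, with 3 at an unadjusted p under 0.05 (28.9% of all rows) and a median log2 fold change of -0.84. Its lowest values were -2.33 for the nitrate transporter and sensor gene NRT1.1B (SE 0.750, edgeR adjusted p = 0.0616), -2.07 for NPF7.2, a carrier of the vacuolar membrane, and -1.06 for NPF8.9. On day 6 NPF7.2 was called at -3.93 (edgeR adjusted p = 0.0499), from 4 tip counts and 68 mature root counts. NAR2.2, the second rice gene of the partner protein family, was untested and had 0 counts in tips and 50 in mature root. With a floor of 3 counts over the tips it was 15.6-fold lower in tip. Of the 50 counts, 38 came from mature root replicate 2 of day 6. Without that library, left out after the data had been seen, the floor gave 5.60-fold.

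Of 10 other rows described as ammonium transporters, 4 were tested and 1 was called lower in tip, against that 9.02% of all rows, with a median of -1.45. This was LOC_Os05g39240, with a mean of 18.0 CPM over the 6 tip libraries (SD 20.1) and 107 CPM over the 4 mature root libraries (SD 66.4). Its log2 fold change of -2.64 (SE 0.699, edgeR adjusted p = 0.0282) lost its call in 6 of the 10 fits that left out a library. LOC_Os01g61510-ext had -1.54 and LOC_Os01g61550 -1.36, both uncalled. Of 12 listed nitrogen assimilation genes, 11 were matched, 9 were tested and 2 were called lower in tip (9.02% of all rows), with a median of -0.89. GS1;2, a cytosolic glutamine synthetase that fixes ammonium in rice roots, averaged 54.7 CPM over the tip libraries (SD 27.4, n = 6) and 404 CPM over those of mature root (SD 247, n = 4). Its log2 fold change was -2.76 (SE 0.413, edgeR adjusted p = 0.00168), and it stayed called in all 10 fits that left out a library.

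The nitrate reductase gene NIA1 had -1.41 (edgeR adjusted p = 0.0442) and lost its call in 7 of those fits, and reads may be shared with its near copy NIA2. NIA3, another nitrate reductase gene, had -1.78 (edgeR adjusted p = 0.0554). Of 4 regulators of the nitrate response, 1 was called lower in tip, beside 9.02% of all rows. This was NLP3, at -1.63 (edgeR adjusted p = 0.0452), which lost its call in 8 of the 10 fits, while NLP1 had -0.57 and NLP4 -0.56. In the time comparisons edgeR called 0 genes of these lists. In mature root all 6 tested nitrate transport genes and all 9 assimilation genes had positive values, with medians of 0.53 and 0.73. The 4 tested other ammonium transporters had 2 positive and 2 negative values (median 0.15). The 4 regulators had 3 positive values and 1 negative (median 0.43). Of all 19234 tested rows, 9371 were positive.

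**Figure D5:**
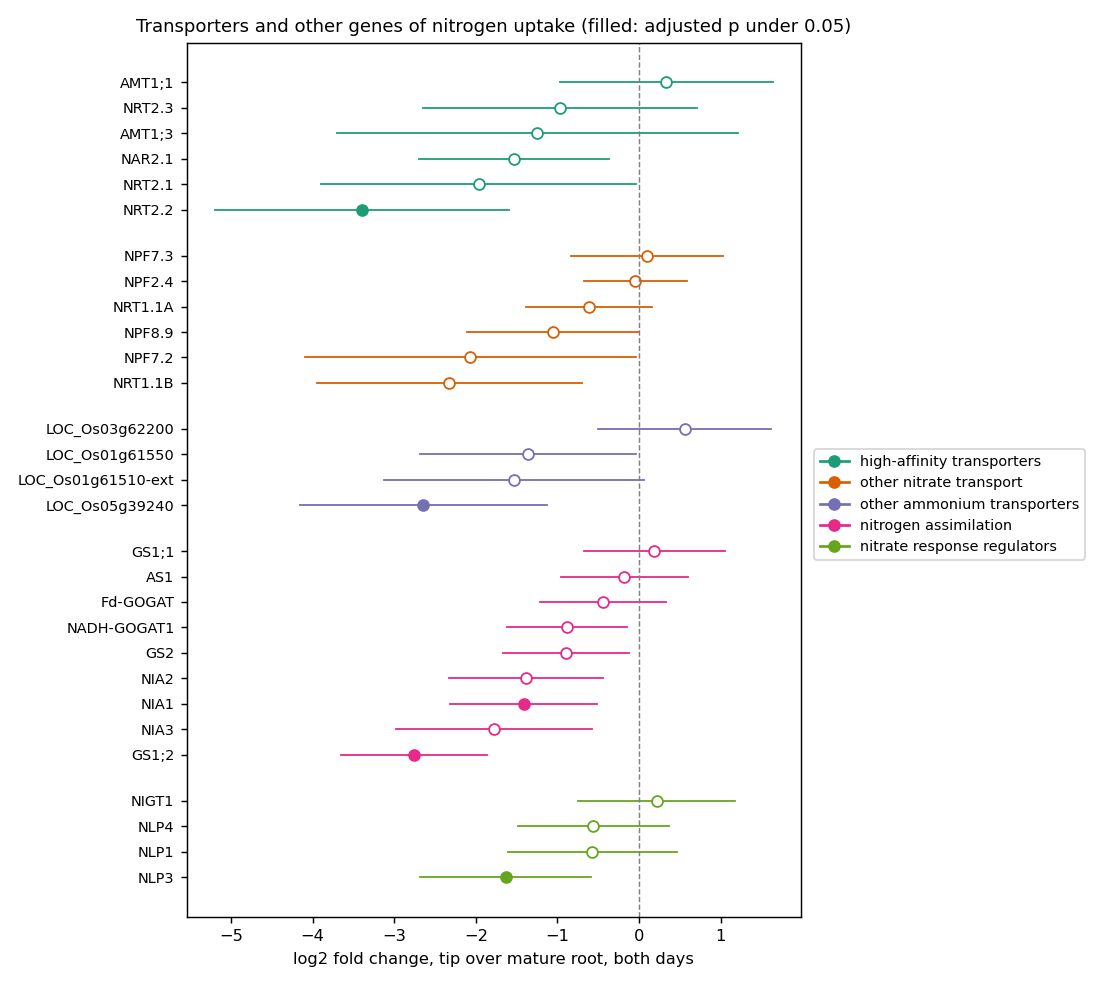
Fitted log2 fold changes of tip over mature root over both days, with 95% intervals, for the tested transporters and for other genes of nitrate and ammonium transport, assimilation and regulation. Filled points passed the test: NRT2.2, LOC_Os05g39240, NIA1, GS1;2 and NLP3, all lower in tip.

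Among 11155 described rows of at least 10 CPM in 1 tissue, the pattern of NAR2.1 over the 10 libraries was most like that of LOC_Os01g01660, described as an isoflavone reductase, with a Pearson r of log2 CPM of 0.98 (0.90 over the 6 tips). LOC_Os03g62370, a WD40-like repeat protein gene, followed with 0.96 (0.78 over tips), and LOC_Os11g29400, a 6-phosphogluconate dehydrogenase gene, with 0.95 (0.72 over tips). AMT1;1 was most like LOC_Os08g23180, a fasciclin-like arabinogalactan protein gene, with r = 0.93 over all libraries and 0.97 over tips, followed by LOC_Os01g02900-ext, a glycosyltransferase gene, and LOC_Os03g16700-ext, both with 0.92. NRT2.1 was most like LOC_Os02g44980, an amino acid transporter gene, with 0.95, then LOC_Os01g22480 with 0.95 and LOC_Os02g23823 with 0.94. For NRT2.2 the rows LOC_Os01g40630-ext, LOC_Os08g01150 and LOC_Os02g32970 all had 0.96, but 0.71, 0.74 and 0.44 over tips. NRT2.2 had 0 or 1 count in each tip library, and 98 rows had r above 0.9 with it over all libraries. That number was 24 for NAR2.1, 4 for AMT1;1, 17 for NRT2.1, 3 for NRT2.3 and 11 for AMT1;3. NRT2.3 had 0.93 with LOC_Os10g25420, a GDSL-like lipase gene, 0.92 with the bZIP factor gene LOC_Os06g10880 and 0.91 with LOC_Os11g14050-ext. AMT1;3 had 0.96 with LOC_Os01g62430-ext, a C2 domain protein gene, and 0.93 with both LOC_Os03g60560 and LOC_Os06g11290. All 10 libraries share the same tissue and day groups, so these values describe likeness of pattern and depth as well.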

How the data were processed

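Polyadenylated RNA was measured in 10 libraries, and the authors deposited 1 table of whole-number counts per gene, without normalization, per the file headers. Per the submitters' processing notes, Bowtie, SAMtools 0.1.12a, TopHat 1.3.1 and Cufflinks 1.0.3 were used, with no role stated. Not given in the sources used here are the genome build, the counting tool, any use of strand and the meaning of the ending -ext. The sample descriptions tied each column to its library.

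The analysis used edgeR 4.0.16 and limma 3.58.1 under R 4.3.3. filterByExpr over the 4 groups (minimum count 10, minimum total 15) kept 19234 of 33486 rows, libraries were scaled by TMM, and 1 quasi-likelihood fit of all 10 libraries gave 6 contrasts. The spread is shared between groups because mature root has 2 libraries a day. Rows were called where the p adjusted over all tested rows (Benjamini-Hochberg) was under 0.05. The standard error is the log2 fold change divided by the square root of F. CPM and RPKM were computed here from the counts and the exon lengths in the table. Adjusted p-values rest on pools that the labels call independent biological replicates, and replicate pairs differed by more than counting error. Counts are reads without molecular identifiers, so intervals (95%) and floors (3 counts) cover counting error only, and levels below about 0.809 to 2.69 CPM in a single library are within it.

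The members and gene lists were chosen with earlier results of these data known. Named beside the members were list genes called over both days or among the 3 largest absolute log2 fold changes of their list, and the 3 most similar described rows per tested member. NAR2.2 and the day 6 value of NPF7.2 were added after their values were seen. Likeness was the Pearson correlation of log2 CPM (prior count 2) over 10 libraries. Alternatives were library totals or DESeq2 1.42.0 size factors for scaling, no filter or a minimum of 5 CPM in 2 libraries, the DESeq2 test, robust dispersion, a replicate block, the compared groups alone, NRT2.1 and NRT2.2 summed, and each library left out. When 1 mature root library was left out, the other of its group was assumed to vary like the rest. The steps were tested on simulated data.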

Additional observations from a re-analysis of the deposited data

Results flagged for a closer look

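Among the 6 tip libraries, the highest AMT1;1 value, 306 CPM in replicate 1 of day 6, stood far from the rest of the group, which lay between 11.2 and 37.3 CPM. The same library held the highest AMT1;3 value among tips, 6.16 CPM from 8 counts, with the other tips at 0 to 1.47 CPM. Both were set apart by the gap to the nearest tip relative to the range of all tips, a rule by which chance picks about 1 group in 20. Tips of both days form this group, and AMT1;1 was higher on day 6 in each of the other tips as well.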

How the results depend on the processing

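Over 36 member comparisons, 672 values under other settings were computed, of which 624 kept both direction and side of the threshold, 18 lost a call, 7 gained one and 23 changed sign. The count of members called lower in tip over both days, 1 in the reported fit, was 2 without a filter and 2 by DESeq2, 0 with the replicate block and 0 with NRT2.1 and NRT2.2 summed, and 0 to 2 with a library left out. On day 6 the count of 2 became 0 with the block, 0 with the compared groups alone, 1 with the copies summed, and 0 to 2 with a library left out. Among all rows, 1734 of 19234 were called lower over both days in the reported fit. This was 2739 of 33486 without a filter, 2355 of 18908 by DESeq2, 990 with the block and 1733 with the copies summed. On day 6 it was 1106 in the reported fit, 513 with the block, 422 with the compared groups alone and 1105 with the copies summed. Members called higher with time, 0 in each tissue, were 1 in tip and 1 in mature root both without a filter and by DESeq2. Rows called higher with time numbered 535 of 33486 in tip and 438 in mature root without a filter. By DESeq2 they were 48 of 18908 and 260. Without a filter AMT1;2 was not called (time in mature root, edgeR adjusted p = 0.24).

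Replicate numbers did not pair the libraries: deviations of 13 same-numbered pairs correlated between -0.0447 and 0.023. The block gave -2.77 for NRT2.2 over both days (edgeR adjusted p = 0.103), -3.95 on day 6 (0.122) and -3.14 for NAR2.1 on day 6 (0.0666). On day 2 it turned the sign of NRT2.1 (0.17), NAR2.1 (-0.23), AMT1;1 (0.29) and AMT1;3 (0.04).

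The other sign changes were in uncalled values. NAR2.1 on day 2 became 0 with DESeq2 size factors, -0.02 with library totals, -0.04 without a filter and 0 by DESeq2. With a library left out, the day 2 tissue values ranged from -1.26 to 0.2 for NRT2.1, -0.31 to 0.76 for NRT2.3, -0.62 to 0.29 for NAR2.1 and -0.36 to 0.2 for AMT1;1. AMT1;1 ranged from -0.56 to 0.56 over both days, -1.11 to 1.12 on day 6 and -1.1 to 1.13 in the difference between days. AMT1;3 ranged from -3.65 to 2.5 in that difference. For time in tip the ranges were -1.12 to 0.14 for NRT2.2, -0.01 to 1.35 for NAR2.1 and -1.01 to 5.14 for AMT1;3. The causes were not tested. The compared groups alone cannot give the contrasts that use all 4 groups.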
